A study of Mus musculus with 5 samples.

Results

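The 291 *Paupar* CHART-Seq peaks of mouse chromosome 8 were selected on a single property, the chromosome named in the peak list, and make up 291 of the 2849 peaks of the series (10.2%, 95% Wilson interval 9.16 to 11.4%). Chromosome 8 was singled out because it carries more peaks than any other chromosome, so its number of peaks is a description here and was not tested. CHART-Seq sequences the genomic DNA that stays crosslinked to an RNA when that RNA is pulled down with biotinylated antisense oligonucleotides and the DNA is released with RNase H. All libraries came from N2A (neuro 2A) cells, a mouse neuroblastoma line grown without treatment: 2 pull-downs with a cocktail of 4 *Paupar* oligonucleotides, 2 with a non-targeting LacZ control oligonucleotide and 1 of input DNA. The methods call the pull-downs independent, and nothing in the labels tells whether they came from separate cultures. The deposited list gives each peak once, with borders and 1 score, and no value per library, so no replicate error exists for any value below and the read depth behind it is unknown. All intervals given are 95% intervals for counting error only, and neighbouring peaks are not independent.

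*Paupar* is a long non-coding RNA, an RNA that is not translated, transcribed from chromosome 2 next to the neurodevelopmental transcription factor gene *Pax6*. Long non-coding RNAs that stay on chromatin can be found at their own locus and, by way of DNA, other RNAs or proteins, at distant places on other chromosomes, and CHART-Seq records direct and indirect contacts alike. Mouse chromosome 8 has its centromere at one end, so it has a single long arm; its first 3 Mb are unassembled in mm9, the build of the peaks, and coordinates here refer to mm9 (NCBIM37). The chromosome carries genes for the netrin receptor *Unc5d*, the ErbB ligand *Nrg1*, the fibroblast growth factor receptor *Fgfr1*, the teneurin *Odz3* (now *Tenm3*), a group of cadherins and several transcription factors.

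The sequences behind the pull-down are shown first, because a peak could hold a stretch of the capture oligonucleotides themselves. The 4 *Paupar* oligonucleotides, each 24 nt long and written 5′ to 3′, were:
Paupar oligonucleotide 254: ggcttaagtccacccctggattcg
Paupar oligonucleotide 428: gcctggaactagatcaaggcagag
Paupar oligonucleotide 2041: ctctcagaaactgcgatacaaaag
Paupar oligonucleotide 2067: gaggcctagtcaaaatatctccac
The longest exact match to any of them in a chromosome 8 peak was 12 nt, in 5 peaks, against 14 nt on the other autosomes. The matched stretch is in capitals in 60 bases of each of these peaks, + strand of mm9:
chr8:36639857-36639916, upstream of *Mfhas1*, oligonucleotide 2067: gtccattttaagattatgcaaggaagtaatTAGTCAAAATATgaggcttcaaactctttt
chr8:49328810-49328869, intron of *Odz3*, oligonucleotide 254: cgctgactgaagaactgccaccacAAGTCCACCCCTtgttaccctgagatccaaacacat
chr8:90325897-90325956, nearest to *Zfp423*, oligonucleotide 428: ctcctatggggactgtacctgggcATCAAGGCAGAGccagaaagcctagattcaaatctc
chr8:96084693-96084752, nearest to *Ces5a*, oligonucleotide 2067 on the opposite strand: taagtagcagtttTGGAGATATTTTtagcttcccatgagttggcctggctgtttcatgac
chr8:108579279-108579338, upstream of *Nfatc3*, oligonucleotide 2067: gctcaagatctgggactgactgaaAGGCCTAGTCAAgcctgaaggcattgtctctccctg
Their scores ran from 8.05 to 21.34, and none was among the 39 chromosome 8 peaks with a score of 30 or more.

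A match of at least 10 nt was found in 72 of the 291 peaks (24.7%, Wilson interval 20.1 to 30.0%) and in 616 of 2525 peaks of the other autosomes (24.4%, 22.8 to 26.1%). Chromosome 8 ranked 8 of 19 autosomes in this share. Of the directly adjacent regions of the same width, such a match was in 64 of 582 on chromosome 8 (10.997%, 8.71 to 13.8%) and in 507 of 5050 on the other autosomes (10.04%, 9.24 to 10.9%). Adjacent regions were kept where they overlapped a neighbouring peak, so a match counted in them can lie in peak sequence. For example, the region before the *Odz3* peak with a score of 36.33 took in the 12 nt match of a neighbouring peak. How far such overlap raised the shares of adjacent regions, at any score, was not tested. Among the 39 chromosome 8 peaks with a score of 30 or more, 12 held a match (30.8%, 18.6 to 46.4%), the same share as their adjacent regions (24 of 78, 30.8%, 21.6 to 41.7%). Among the 252 with lower scores the share was 23.8% (18.97 to 29.4%) in the peaks and 7.94% (5.88 to 10.6%) in the adjacent regions. On the other autosomes, peaks with a score of 30 or more held a match in 31.0% (25.3 to 37.3%) and their adjacent regions in 18.1% (14.9 to 22.0%). Each oligonucleotide on its own matched 17 to 24 chromosome 8 peaks. The part of such matches in any single peak was not tested.

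Chromosome 8 carried 291 peaks where 149 were expected, a ratio of 1.95 (exact Poisson interval 1.73 to 2.19). The expectation is the number of peaks that the chromosome would have at the rates of the other 18 autosomes for sequence of the same GC content, taken in 8 GC classes of 100 kb windows. The other autosomes ranged from 0.578 times (chromosome 14) to 1.34 times (chromosome 10) their expectation. In density this was 2.33 peaks per Mb of sequence against 1.11 on the other autosomes. Its GC content was 42.4% against 41.9%, and it had 8.67 protein-coding gene starts per Mb against 8.96. The ratio was 1.95 without the peaks that hold an oligonucleotide match, and 1.86 when only peaks were counted whose 32-base words each occur once in the genome.

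**Figure D1:**
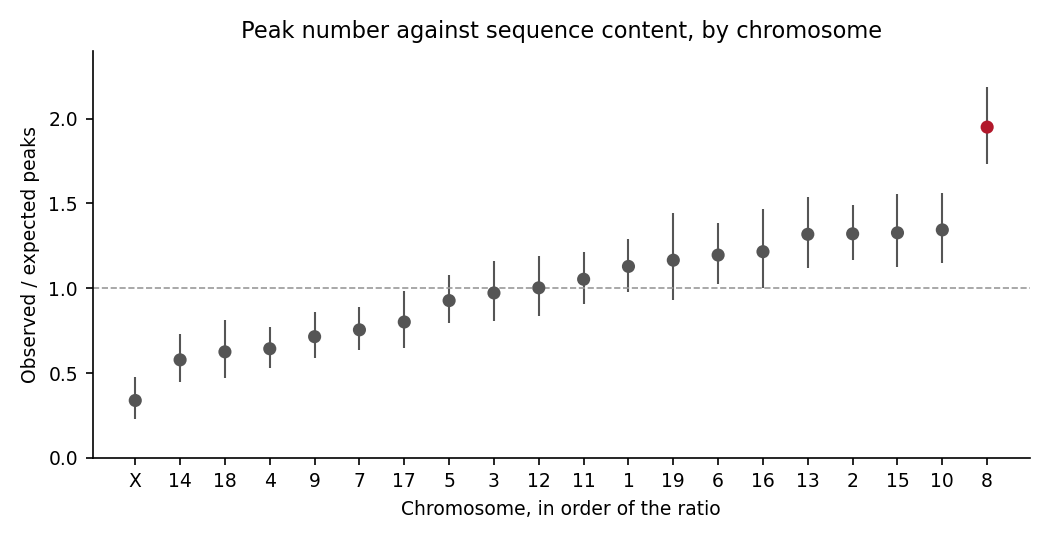
Observed over expected number of peaks for each chromosome, in order of the ratio, with exact 95% Poisson intervals for counting error; the dashed line marks a ratio of 1. Chromosome 8 (red) lies at 1.95 and the next autosome, chromosome 10, at 1.34.

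The peaks reached from chr8:3151630 to chr8:131166395 but were not spread evenly. Of 27 fixed windows of 5 Mb, numbered from the centromere end, 12 held at least 2 times their expected number (44.4%). Of all 499 autosomal windows 57 did (11.4%), and of the 472 outside chromosome 8, 45 did (9.53%). No other autosome had more than 8 such windows. Because the chromosome was chosen for its number of peaks, a high share of such windows is not separate from that number. Only 3 windows lay below their expectation. Of the 12 windows, 10 were among the first 13 and 2 among the last 14. Window 10 was the densest, with 29 peaks where 5.75 were expected (5.04 times, 3.38 to 7.24). It was followed in peak number by window 3 with 26 (2.34 times, 1.53 to 3.43), window 6 with 22 (3.41 times, 2.14 to 5.17) and window 8 with 21 (4.19 times, 2.59 to 6.399). Window 26, near the far end, also held 22 peaks, but 11.7 were expected in its GC-rich sequence (1.88 times, 1.18 to 2.85). Windows 5, 11, 13 and 21 passed 2 times with only 8, 3, 6 and 4 peaks.

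**Figure D2:**
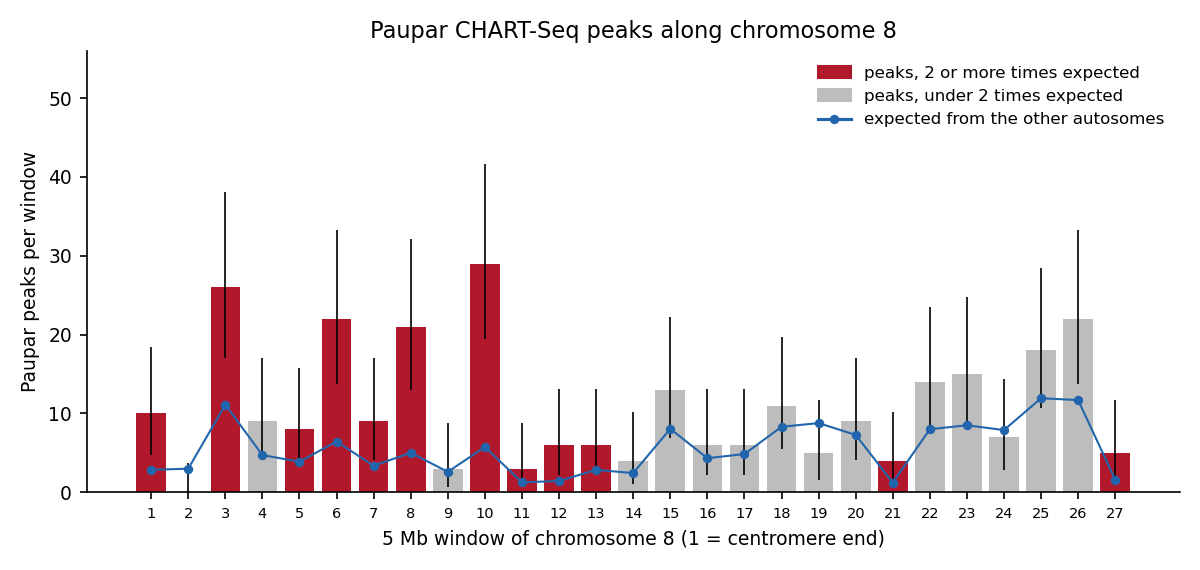
Paupar peaks in each of the 27 windows of chromosome 8 (bars; black lines are exact 95% Poisson intervals) and the number expected from the other autosomes (blue). Red bars reach 2 times the expectation or more; 10 of the 12 red bars lie in the first 13 windows, and window 2 is empty.

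The chromosome midpoint splits the peaks into a centromere-proximal segment with 152 peaks, where 54.5 were expected (2.79 times, 2.36 to 3.27), and a distal segment with 139, where 94.7 were expected (1.47 times, 1.23 to 1.73). The proximal segment had fewer gene starts (385 against 697) and lower GC content (40.9% against 43.7%), and its 152 peaks exceeded the expectation by 97.5, which is 68.7% of the excess of the whole chromosome. Among the 36 segments made in the same way from the other autosomes the ratio ran from 0.330 to 2.11; none lay above the proximal segment of chromosome 8 and 3 lay above its distal segment. The midpoint was set from the length of the chromosome, after the distribution of its peaks had been seen, and the difference between the segments was not tested.

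The ratio of the proximal segment was higher among peaks with higher scores, and that of the distal segment was not. The score is the single value that the list gives each peak. Its scale, and which of the comparisons with LacZ or input it comes from, are not given in the sources used here. The authors kept only peaks that passed a cut on the false discovery rate. The lowest score was 5.75 on chromosome 8 and 5.34 on the other autosomes, and whether the score is built on that rate is not stated. Below a score of 10 the ratios of both segments lay within each other's intervals, with 29 peaks proximal (1.74 times, 1.17 to 2.503) and 47 distal (1.73 times, 1.27 to 2.30). From 10 to 20 they held 74 (2.81 times, 2.21 to 3.53) and 71 (1.51 times, 1.18 to 1.90). At 20 or more the proximal segment held 49 peaks where 11.6 were expected (4.24 times, 3.14 to 5.61), while the distal segment held 21 where 20.5 were expected (1.03 times, 0.635 to 1.57). The distal value depends on the cut, since from 20 to 30 that segment held 8 against 11.9 expected (0.673 times, 0.291 to 1.33). At 30 or more it held 13 against 8.58 (1.52 times, 0.807 to 2.59), and the proximal segment 26 against 4.81 (5.40 times, 3.53 to 7.92). At 50 or more there were 11 proximal peaks against 1.14 expected (9.62 times, 4.80 to 17.2) and 3 distal peaks against 2.14 expected (1.40 times, 0.289 to 4.09). All 11 of these proximal peaks lay in windows 3 and 8. None of the 36 segments of the other autosomes reached the proximal value for scores of 20 or more, their highest being 2.38, and 15 lay above the distal value. For scores of 30 or more 7 lay above the distal value.

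**Figure D3:**
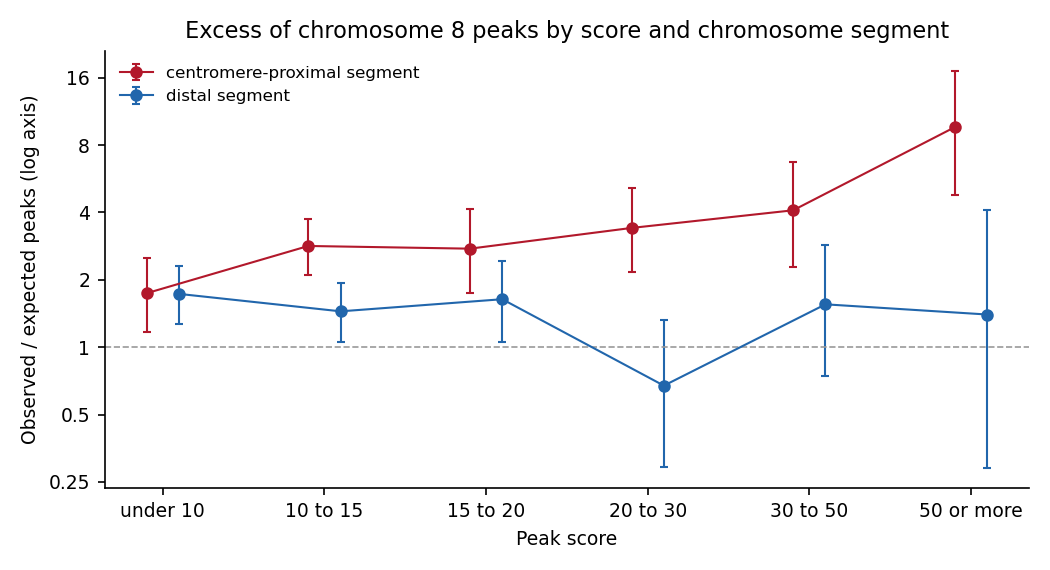
Observed over expected peaks (log axis) by score class in the centromere-proximal (red) and distal (blue) segment of chromosome 8; bars are exact 95% Poisson intervals and the dashed line marks 1. Both segments start near 1.7 below a score of 10. The proximal segment reaches 9.62 at 50 or more, where all 11 of its peaks lie in windows 3 and 8.

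Chromosome 8 held a larger share of the highest-scoring peaks of the genome than of the lowest-scoring ones. It had 76 of 834 peaks with a score under 10 (9.11%, Wilson interval 7.34 to 11.3%), 39 of 273 with 30 or more (14.3%, 10.6 to 18.9%), 14 of 74 with 50 or more (18.9%, 11.6 to 29.3%) and 3 of 10 with 100 or more (30.0%, 10.8 to 60.3%). The share did not climb at every step, since 31 of 351 peaks from 20 to 30 lay on chromosome 8 (8.83%, 6.29 to 12.3%). The bulk of its peaks had ordinary scores: the median was 12.98 (quartiles 9.87 and 19.2) on chromosome 8 and 12.66 (9.45 and 18.6) on the other autosomes. Of the chromosome 8 peaks 13.4% (9.96 to 17.8%) had a score of 30 or more, against 8.95% (7.90 to 10.1%) on the other autosomes, the highest share of the 19 autosomes; chromosome 17 followed with 12.9%.

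The strongest peaks gathered in 2 places. Of the 14 peaks with a score of 50 or more, 6 lay in window 3 and 5 in window 8, although these windows hold 16.2% of the peaks of the chromosome. Without both windows the first 13 windows still held 29 peaks with a score of 20 or more against 8.03 expected (3.61 times, 2.42 to 5.18). In window 10 the 29 peaks had scores from 6.51 to 36.33 with a median of 13.41, and only 2 reached 30.

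**Figure D4:**
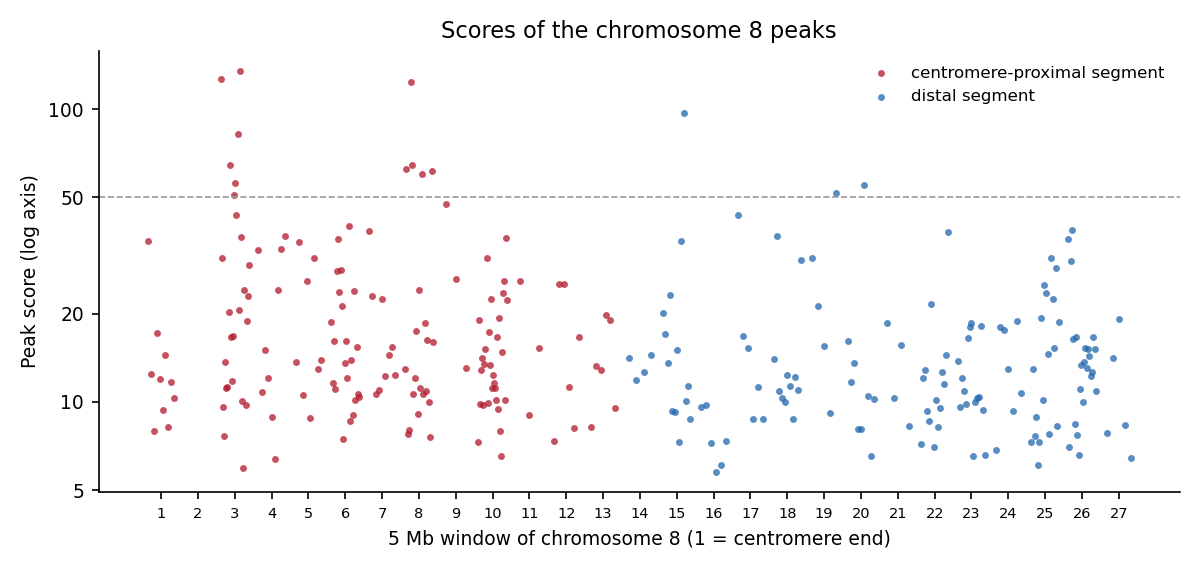
Score (log axis) of each of the 291 chromosome 8 peaks by 5 Mb window; points are spread within a window in order of position, and the dashed line marks a score of 50. Windows 3 and 8 hold 11 of the 14 peaks above the line, and the many peaks of window 10 stay below it.

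In window 3 the highest peak of the chromosome spanned chr8:12128855-12134546, was 5692 bp wide and scored 135.15, the third highest among all 2849 peaks. It is also the widest on the chromosome. It lay between genes, 147118 bp upstream of *A230072I06Rik*, next to a 1221 bp peak with a score of 20.56, and 47.7% of its 32-base words occur more than once in the genome. Its central 200 bases, chr8:12131601-12131800, + strand, are shown because they are tandemly repeated, at a GC content of 67.5%; capitals mark runs of at least 20 bases made of 3 or more exact copies of a unit of up to 12 bases:
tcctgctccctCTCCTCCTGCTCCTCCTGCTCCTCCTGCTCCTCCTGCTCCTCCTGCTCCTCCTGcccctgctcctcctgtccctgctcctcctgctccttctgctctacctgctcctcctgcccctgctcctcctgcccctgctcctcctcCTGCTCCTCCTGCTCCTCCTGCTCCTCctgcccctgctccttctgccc
A peak at chr8:12048015-12051420 with a score of 82.22 lay in the same interval between *1700018L24Rik* and *A230072I06Rik*, and only 0.207% of its 32-base words recur. A peak of 2587 bp with a score of 126.43 stood at chr8:10183274-10185860, 88005 bp upstream of *Myo16*, the gene of an unconventional myosin; 3.09% of its words recur. Its central 200 bases, chr8:10184467-10184666, + strand, are shown for comparison with those of the highest peak and have a GC content of 43.5%:
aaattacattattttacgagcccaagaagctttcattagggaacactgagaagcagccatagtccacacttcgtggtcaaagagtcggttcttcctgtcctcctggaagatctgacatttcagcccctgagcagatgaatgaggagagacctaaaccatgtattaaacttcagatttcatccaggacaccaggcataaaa
Next came a peak 147181 bp upstream of *Irs2*, the insulin receptor substrate 2 gene (2631 bp, score 64.61). An intron of *Cars2*, the mitochondrial cysteinyl-tRNA synthetase gene, held neighbouring peaks with scores of 51.07 and 55.86; the former, at 4098 bp, was 1 of the 3 widest peaks of the chromosome.

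In window 8 the top peak, chr8:35570796-35575511, was 4716 bp wide, second on the chromosome, and scored 124.13. A peak with a score of 64.44 followed it after 414 bp, in an interval of 245 kb with 8 peaks between the short gene model *Gm4889* and *Dusp4*, which encodes a phosphatase of MAP kinases. The central 200 bases of the top peak, chr8:35573054-35573253, + strand, have a GC content of 41.5%:
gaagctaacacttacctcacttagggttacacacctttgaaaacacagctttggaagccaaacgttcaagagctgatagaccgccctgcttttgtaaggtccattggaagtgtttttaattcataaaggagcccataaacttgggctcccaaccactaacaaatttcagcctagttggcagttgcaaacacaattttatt
Over the whole width of this peak 20.7% of the 32-base words recur. The other strong peaks of this window lay in *Leprotl1* (score 62.50, intronic, 2034 bp downstream of the start), in an intron of *Sgcz*, the zeta-sarcoglycan gene (61.56, none of its words recurring) and 28506 bp upstream of *Eri1*, which encodes an exoribonuclease that trims histone mRNA and small RNAs (59.87). In the distal segment the 3 peaks with scores over 50 were one 29894 bp upstream of *Fcho1*, an endocytosis gene (chr8:74277462-74281555, score 96.77, 41.3% of words recurring), one in an intron of *Gnao1*, the gene of a brain G protein α subunit (54.91), and one in an intron of *Fto*, which encodes an RNA demethylase (51.84). Of the chromosome 8 peaks, 158 of the 291 had no recurring 32-base word, and in 14 (4.81%, 2.89 to 7.91%) at least 50% of the words recurred, against 79 of 2525 (3.13%, 2.52 to 3.88%) on the other autosomes. Recurring words were more frequent at high scores. At 30 or more, 8 of 39 peaks had none and the median share was 8.31%, against 68 of 226 and 5.59% on the other autosomes. At 50 or more, 1 of 14 had none and the median share was 15.8%, but in 0 of the 14 did it reach 50%. Reads had been kept by the authors only if they mapped to 1 place, and the part of repeats in any score was not tested.

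Window 10, the densest, held its 29 peaks over 4066 kb, and 22 of its 37 protein-coding genes had a peak in their regulatory domain. That domain holds the 5 kb before a gene start and 1 kb after it, and reaches out on either side to the neighbouring gene's, for at most 1 Mb. Over the whole chromosome 305 of 1082 genes had such a peak (28.2%), and over the genome 16.5% did. The window was picked for its number of peaks, so its number of genes with a peak is a description and was not tested. *Enpp6*, which encodes a choline-specific phosphodiesterase of oligodendrocytes, and *Odz3*, a neuronal adhesion gene, had 6 peaks each, and *Dctd*, the deoxycytidylate deaminase gene, had 5. *Helt*, a basic helix-loop-helix repressor gene, *Irf2*, an interferon regulatory factor gene, and *Stox2* had 4 each. The 3 peaks upstream of *Irf2* lay within 3.67 kb of each other, 15641 to 18911 bp from its start, with scores of 11.15, 12.32 and 11.58. In *Odz3* an intronic group of 3 peaks within 9.44 kb reached a score of 36.33, the highest of the window. Among the other genes of the window, *Pdlim3*, *Sorbs2* and *Gm10313* had 3 peaks, *Fat1*, *Mtnr1a* and *Acsl1* 2, and *F11*, *Tlr3*, *Ankrd37*, *4933411K20Rik*, *Slc25a4*, *Rwdd4a*, *AA386476*, *Cldn22* and *Wwc2* 1. Only 3 of the 29 peaks lay within 5 kb of a gene start. Because the domains overlap at a peak that lies between genes, a single peak can count for both neighbours.

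Window 2 was empty, where 3.001 peaks were expected and a count of 0 has an upper limit of 3.69. The empty stretch ran on into the next window, from chr8:4642362 to chr8:10183274, 5540911 bp in all, and the peak that ends it is the one upstream of *Myo16* with a score of 126.43. Window 2 has 9 protein-coding gene starts, among them *Efnb2*, an ephrin ligand gene, *Lig4*, the DNA ligase of end joining, and *Slc10a2*, the ileal bile acid transporter gene, beside *Gm1840*, *4921522P10Rik*, *Arglu1*, *Fam155a*, *Gm10217* and *Abhd13*. The start of *Efnb2* was 1523328 bp from the nearest peak.

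The median gap between neighbouring peaks was 173540 bp, the smallest of the 19 autosomes, whose other medians ran from 231214 to 792468.5 bp. A neighbour within 10 kb was found for 53 of 291 peaks (18.2%, 14.2 to 23.1%) against 306 of 2525 on the other autosomes (12.1%, 10.9 to 13.4%). In this share chromosome 8 ranked 4 of 19 autosomes, behind chromosomes 15 (22.0%), 16 and 18 (20% each). A neighbour within 100 kb was found for 172 (59.1%, 53.4 to 64.6%) against 1006 (39.8%, 37.9 to 41.8%). A chromosome with more peaks has closer neighbours, so these values are not separate from the number of peaks. The segments differed in this too: 43 of 152 proximal peaks had a neighbour within 10 kb (28.3%) and 10 of 139 distal peaks (7.19%). Counted with neighbouring peaks joined into one, the ratio was 1.88 for gaps of up to 10 kb and 1.62 for gaps of up to 100 kb.

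The widths of the chromosome 8 peaks ran from 192 to 5692 bp with a median of 555 bp (quartiles 373 and 878.5), and the median of the other autosomes was also 555 bp (376 and 832). Wider than 1 kb were 52 (17.9%, 13.9 to 22.7%) against 17.5% (16.1 to 19.04%). Wider than 2 kb were 18 (6.19%, 3.95 to 9.56%) against 4.28% (3.56 to 5.14%), and 6 of these 18 lay in window 3. Width and score rose together, with a Spearman correlation across peaks of 0.411 (291 peaks) on chromosome 8 and 0.379 (2525 peaks) elsewhere; peaks share their libraries and are not replicates.

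By annotation the peaks were denser than on the other autosomes in each of the large territories. The midpoint of 130 peaks lay in an intron of a protein-coding gene (44.7%, 39.1 to 50.4%, against 43.8% on the other autosomes) and of 127 between genes (43.6%, 38.1 to 49.4%, against 41.5%). A further 20 lay in the 5 kb before a gene and 10 in the 5 kb after it. Per Mb of territory, introns held 2.82 peaks against 1.32 (2.13 times), intergenic sequence 1.84 against 0.850 (2.16 times), 5′ flanks 5.56 against 2.36 (2.36 times) and 3′ flanks 3.46 against 1.64 (2.11 times). Over the whole chromosome the density was 2.10 times that of the other autosomes, so these values are not separate from the number of peaks. The 5′ UTRs and 3′ UTRs held 2 peaks each, and coding sequence held 0, where the upper limit of the count allows 2.26 peaks per Mb; the other autosomes had 1.11. Of the 130 intronic peaks, 8 were intronic only through *Gm20388*, an annotated gene model of 4435 kb that runs across many genes in windows 25 and 26.

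**Figure D5:**
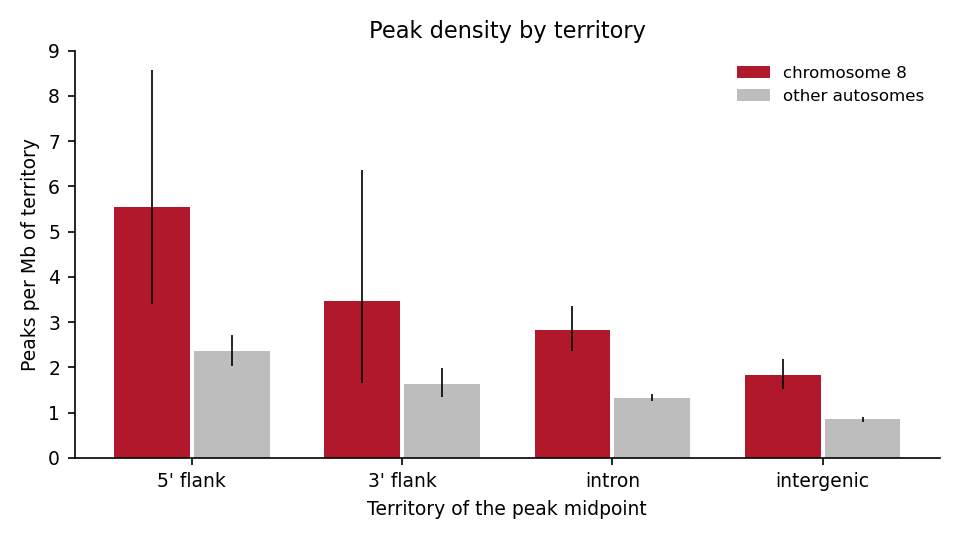
Peaks per Mb of territory on chromosome 8 (red) and on the other autosomes (grey), with exact 95% Poisson intervals. Chromosome 8 is higher in each of the 4 territories, by 2.11 to 2.36 times, and the order of the territories matches. Over all its sequence the density is 2.10 times that of the other autosomes.

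The share of peaks at gene starts was below that of the other autosomes. The midpoint lay within 5 kb of a protein-coding gene start for 37 peaks (12.7%, 9.37 to 17.0%) against 413 of 2525 (16.4%, 14.97 to 17.9%), and within 1 kb for 11 (3.78%, 2.12 to 6.64%) against 182 (7.21%, 6.26 to 8.28%). Both shares are in the lower part of the range over the autosomes, ranks 13 and 16 of 19. More than 100 kb from any start lay 83 peaks (28.5%, 23.6 to 34.0%) against 548 (21.7%, 20.1 to 23.4%), 52 of them in the proximal segment. The median distance was 36026 bp, with medians from 18525 to 66430.5 bp on the other autosomes. Counted the other way, 42 of the 1082 genes of chromosome 8 had a peak within 5 kb of their start (3.88%), where 2.36% of the 22380 genes of the genome did. Chromosome 10 was higher, at 4.59%. This share of genes rises with the number of peaks and is not separate from it.

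The 11 peaks within 1 kb of a gene start had modest scores, from 7.28 to 38.17 with a median of 9.97, and 8 of them lay upstream. The highest was at *Nqo1*, the gene of a quinone reductase induced by oxidative stress: chr8:109927045-109928768, 1724 bp, midpoint 801 bp upstream of the start. Second was *Ikbkb*, which encodes a kinase that activates NF-κB (score 25.93, 717 bp upstream). *Pnpla6*, a neuronal lysophospholipase gene, scored 17.17 with its midpoint 221 bp downstream of the start, and *Whsc1l1* (*Nsd3*), a histone methyltransferase gene, 16.18 at 270 bp upstream. The others were *Pdlim3* (13.42), *Znrf1*, a ubiquitin ligase gene (9.97), *Homer3*, a scaffold gene of excitatory synapses (9.33), *Gdf15*, a secreted stress factor gene (9.20), *Plat*, the tissue plasminogen activator gene (8.84), *Wdr83* (8.76) and *Fam92b* (7.28). The central 200 bases of the peaks at *Pnpla6* and *Whsc1l1*, + strand, each hold the 6-base word CACCCC. At *Pnpla6* a further copy starts at the last base of the marked copy, and its other bases are in lower case. The first copy in each is in capitals:
chr8:3515505-3515704, *Pnpla6*: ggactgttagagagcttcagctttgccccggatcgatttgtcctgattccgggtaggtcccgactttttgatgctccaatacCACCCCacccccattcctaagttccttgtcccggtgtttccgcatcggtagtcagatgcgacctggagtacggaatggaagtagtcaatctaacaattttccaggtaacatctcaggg
chr8:26711703-26711902, *Whsc1l1*: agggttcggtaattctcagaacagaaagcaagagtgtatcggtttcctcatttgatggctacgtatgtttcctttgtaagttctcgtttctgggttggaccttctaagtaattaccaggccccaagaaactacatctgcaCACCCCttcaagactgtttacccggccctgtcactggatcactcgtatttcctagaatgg
Of the 11 peaks, those at *Pdlim3*, *Homer3* and *Gdf15* also held this word in their central 200 bases, on either strand. Those at *Nqo1*, *Ikbkb*, *Znrf1*, *Plat*, *Wdr83* and *Fam92b* did not. CACCCC, on either strand, was in the central 200 bases of 65 chromosome 8 peaks (22.3%, 17.9 to 27.5%) and in 73 of 582 regions of 200 bases starting 1 kb outside them (12.5%, 10.1 to 15.5%). The shares on the other autosomes were 26.3% (24.6 to 28.01%) inside and 12.9% (11.98 to 13.8%) outside. Of 3 other words searched on either strand, ATCATC was in 15.8% (12.1 to 20.4%) of the centres and 7.73% (5.83 to 10.2%) of the outside regions of chromosome 8, and CAGGGG in 15.8% (12.1 to 20.4%) and 13.6% (11.03 to 16.6%), the latter below the 21.4% (19.9 to 23.1%) of centres on the other autosomes. CACCCC and the reverse complement of CAGGGG both stand in oligonucleotide 254, where they overlap. TAAAAA was in 11.3% (8.19 to 15.5%) of the centres and 23.4% (20.1 to 27.0%) of the outside regions of chromosome 8. The centres of the chromosome 8 peaks had a GC content of 48.1% against 45.5% outside, close to the 48.4% and 45.4% of the other autosomes.

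At the level of genes, 305 of the 1082 protein-coding genes of chromosome 8 had at least 1 peak in their regulatory domain (28.2%), where 16.5% of the genes of the genome did; the other autosomes ranged from 9.75 to 23.0%. The share was 34.0% in the proximal segment (131 of 385) and 25.0% in the distal segment (174 of 697). At least 4 peaks were found for 23 genes (2.13%, against 0.551% on the other autosomes), 19 of them with their start in the first 13 windows. These shares of genes rise with the number of peaks, for which the chromosome was chosen, so they are not separate from that number. *Myo16*, *Gm4889* and *Dusp4* led with 8 peaks each; *3930402G23Rik* had 7. *Nrg1*, the neuregulin ligand of ErbB receptors, had 6, all outside its annotated body and the nearest 13913 bp upstream. *Mcph1*, the microcephalin gene of centrosome and chromosome condensation control, had 5. The remaining genes of the proximal part with 4 were *1700018L24Rik*, *A230072I06Rik*, *Csmd1*, *Plekha2*, *Tacc1*, *Fut10* and *AI429214*, beside those of window 10. The distal part had only 4 such genes with 4 peaks each: *Cdh11*, a cadherin of mesenchyme and neurons, *Zfhx3*, a zinc-finger homeobox gene of neurons, *Nrp1*, the receptor of semaphorin 3A and VEGF, and its neighbour *Itgb1*, the integrin β1 gene.

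Groups of chromosome 8 genes by role, listed with earlier results known, were found at 124 of 126 entries in the annotation. *Sox1* and *Foxl1* were not found under these names among its protein-coding genes and are not counted. The authors cloned a *Paupar* binding site of *Sox1* and reported array evidence that *Paupar* regulates this gene, so its absence limits the transcription factor list. A gene that was not found also could not be named as nearest to a peak, so peaks described by their nearest gene can lie nearer to such a gene. A peak lay within 100 kb of the start of 55 of the 124 (44.4%), as for 484 of all 1082 genes (44.7%); over the genome it was 25.8%. A peak in the regulatory domain was more frequent in the lists (52 of 124, 41.9%, against 28.2%), but genes with distant neighbours have larger domains.

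Among transcription factor genes 12 of 27 had a peak within 100 kb. *Nfatc3*, a calcium-regulated factor gene, had one 3221 bp upstream (score 10.15) and *Jund*, an AP-1 subunit gene, one 1711 bp upstream (15.08). *Klf2* (9308 bp downstream), *Nfix* (12397 bp upstream), *Irf2*, *Zfhx3* (20897 bp downstream), *Foxf1a*, *Lyl1*, *Hand2*, *Irf8*, *Foxc2* and *Klf1* followed at growing distance. The starts of *Sall1*, *Tox3* and *Nr3c2* were 727045, 1032481 and 1225481 bp from the nearest peak. Of the ligand, receptor and signal relay genes 10 of 28 had one: *Plat*, *Adrb3*, *Dkk4*, a Wnt inhibitor gene (8391 bp upstream), *Nrg1*, *Fgfr1* (17990 bp downstream), *Mtnr1a*, *Unc5d* (37650 bp downstream, score 38.45), *Jak3*, *Pik3r2* and *Irs2*. Of the adhesion and matrix genes 10 of 20 had one, with *Cdh11* (5696 bp upstream) and *Mmp2* (9010 bp upstream) closest, then *Cdh15*, *Mmp15*, *Palld*, *Col4a1*, *Col4a2*, *Fat1*, *Comp* and *Cdh3*; the start of *Cdh8* was 1681045 bp from the nearest peak.

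The list for neuronal signalling and secretion is loose and also holds genes of other roles, such as *Stox2*, *Wwc2*, *Fgl1* and *Adam29*. Of its 22 genes 10 had a peak within 100 kb. *Homer3* had one 312 bp upstream and *Stox2* one 2544 bp downstream; *Cpe*, the prohormone-processing carboxypeptidase gene, *Kcnk1*, a potassium channel gene, *Wwc2*, *Scrg1*, *Atp2c2* and *Clcn3* were farther, as were *Rab3a* and *Unc13a*, both genes of synaptic vesicle release. Of the genes of the cell cycle, replication and chromatin 13 of 30 had one. *Whsc1l1* was closest, then *Mcm5*, of the replicative helicase (7685 bp upstream); those farther included *Ing1*, *Mcph1*, *Ing2*, *Polb*, *Fanca*, *Asf1b*, *Brd7*, *Cdkn2aip*, *Ctcf* and *Mlf1ip*. In this last list 5 of 30 genes had a peak in the regulatory domain (16.7%), the lowest share of the 5 lists, the others lying between 40.9 and 53.6%, while its share within 100 kb (43.3%) stood beside 44.7% of all genes of the chromosome.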

How the data were processed

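CHART-Seq libraries of N2A cells were grouped by their labels into pull-downs with *Paupar* oligonucleotides (2), with the LacZ control (2) and input DNA (1). Per the methods, the authors used Bowtie to place paired-end reads at 1 position in mm9. MACS2 peaks were filtered by a cut on their false discovery rate and retained where both the LacZ and the input comparison gave them. Tool versions are not given in the sources used here. The deposited list holds the position of each peak and a score of unnamed scale, and no counts. From it, the expected number per chromosome and per 5 Mb window was computed with pandas 2.3.3, pysam 0.24.0 and scipy 1.17.1 under Python 3.11.15 from the rates of the other 18 autosomes in 8 GC classes of 100 kb windows; windows with under 1 Mb of known sequence were left out. Shares have Wilson intervals and counts exact Poisson intervals (95%). Genes were 22380 protein-coding genes of the NCBIM37 annotation, and coordinates are 1-based. Only the oligonucleotide sequences came from the supplement. The genes named were those at the 10 highest and 3 widest peaks, at peaks within 1 kb of a start, with 4 or more peaks, in the densest and the empty window, and in lists by role; peaks with scores of 50 or more, those with a 12 nt match and other genes were named after their values were seen. Members and lists were chosen with earlier results of these data known. The scripts were tested on simulated data. Thresholds, windows, joining of peaks and gene rules were varied. Some genes that the rule covers are not reported here.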

Additional observations from a re-analysis of the deposited data

How the results depend on the processing

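In all, 33 alternative settings were computed. Every ratio setting used the same list, and chromosome 8 was chosen for its number of peaks, so ratios above 1 add no separate support. The ratio of observed to expected peaks on chromosome 8 (1.95) ran from 1.62 to 4.26 over 15 alternatives and lay above 1 in each. It was 1.62 with peaks joined over gaps of up to 100 kb and, in settings chosen after seeing the data, 2.91 for scores of 30 or more, 4.26 for 50 or more and 1.69 without windows 3, 8 and 10. The number of windows at 2 times the expectation (12) ran from 8 to 14. The share of peaks near a gene start (12.7% within 5 kb) was 3.78% within 1 kb and 17.2% when all transcript starts were used. Genes with a peak numbered 198 in place of 305 when each peak was given to its nearest gene start only, 231 with domains reaching at most 100 kb and 242 for scores of 10 or more. The share of peaks with an oligonucleotide match (24.7%) was 53.6% for at least 9 nt, 5.84% for at least 11 nt and 7.90% in the central 200 bp. The median width (555 bp) was 605 bp for scores of 10 or more. The other settings chosen after seeing the data were leaving out window 10, leaving out peaks with a match, keeping only peaks of sequence found once, and windows counted at scores of 20 or more. No paired analysis was possible because the list holds no value per library, and for the same reason no replicate could be left out. Depth is unknown.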

Other observations

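Some genes of chromosome 8 held more than 1 peak inside their annotated body. *Myo16* held 5 in 362 kb and *Odz3* held 4 in 447 kb. *Dlgap2*, which encodes a scaffold protein of the postsynaptic density, held 3 in 752 kb, *Zmat4*, a zinc-finger gene, 3 in 521 kb, *Plekha2* 3 in 63.1 kb and *Vat1l* 3 in 168 kb. *Ash2l*, which encodes a subunit of histone H3 methyltransferase complexes, held 2 in 31.5 kb. The longer *Sgcz*, *Galntl6* and *Wwox* also held 2 each, in 1139, 1134 and 913 kb. These genes were chosen after their values were seen, and no test was made.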
